A study of Mus musculus with 20 samples.

Results

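The cornified envelope genes described here are 50 mouse genes chosen by symbol, of 19234 genes in the AD table and 19501 in the ACD table. They are the 21 Lce genes, the 14 Sprr genes and 15 genes named one by one: Flg, Flg2, Hrnr, Rptn, Crnn, Ivl, Lor, Crct1, Ppl, Tgm1, Tgm3, Casp14, Cdsn, Dsg1a and Dsc1. All 50 are in both tables. In the RefSeq annotation of GRCm38.p6, 43 of them lie on chromosome 3 between positions 92080271 and 93399442, the epidermal differentiation complex. The other 7 (Ppl, Tgm1, Tgm3, Casp14, Cdsn, Dsg1a and Dsc1) lie on other chromosomes, so the set is wider than that complex.

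The values are RNA sequencing counts of ear tissue from C57BL/6 mice of 6 to 7 weeks, 5 libraries in each of 4 groups. AD model mice received 0.7 mg/kg of SB415286, an inhibitor of the kinase GSK3, into the abdominal cavity (AD SB415286), and AD model mice without it are the AD controls. ACD model mice received 2 mg/kg of SB415286 (ACD SB415286), and ACD model mice without it are the ACD controls. Ears were collected 4 h after injection. The controls are untreated in the sample labels and vehicle controls in the design text, and in the protocol both doses stand under the AD model. The labels do not spell out AD or ACD, do not say how either was induced, and do not say whether a library holds 1 mouse, so the p-values measure only the spread between these libraries. Values per library are given in the order of the library numbers, which are 2, 3, 4, 6 and 7 for AD SB415286, 1, 2, 4, 5 and 6 for AD control, 3, 4, 5, 7 and 8 for ACD SB415286 and 1, 3, 4, 5 and 6 for ACD control.

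The cornified envelope is the protein shell that replaces the plasma membrane of keratinocytes as they die and form the outermost layer of the epidermis. Involucrin and periplakin form its first scaffold, transglutaminases crosslink loricrin, small proline-rich (SPRR) and late cornified envelope (LCE) proteins onto it, and filaggrin and its relatives bundle keratin filaments and are degraded to water-binding amino acids. Corneodesmosomes, which hold corneodesmosin, desmoglein 1 and desmocollin 1, keep the dead cells together. SPRR proteins and the LCE3 group are known to be induced in injured or inflamed skin, while LCE1, loricrin and filaggrin belong to undisturbed terminal differentiation.

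Ear epidermis was represented in every library: Krt14, a keratin of basal keratinocytes, had between 4121 and 11190.4 CPM, which here are reads per M library reads after TMM scaling. AD libraries held 18.2 to 20.9 M expected counts each, and ACD libraries 18.8 to 20.2 M. The 50 genes took 2.71, 2.65, 2.87, 4.38 and 1.77% of all reads in AD SB415286 libraries, against 3.17, 2.44, 2.65, 3.50 and 3.11% in AD controls. They took 1.07, 0.882, 0.849, 1.46 and 1.40% in ACD SB415286 libraries, against 1.37, 1.49, 1.43, 1.25 and 0.920% in ACD controls. The shares of SB415286 and control libraries overlapped in both models, and every ACD library was at or below 1.49% while every AD library was at or above 1.77%. In bulk tissue, fewer cells of a type and less RNA per cell cannot be told apart.

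Among the AD libraries, 2 did not follow their labels over all genes. The median r of control 6 was 0.981 with the SB415286 group and 0.966 with its own group, and that of SB415286 library 7 was 0.956 with its own group and 0.957 with the controls. The files do not show whether these 2 libraries carry the right labels. Every AD fold change and every difference between the models rests on the labels as given, and the counts of AD calls are therefore given with and without both libraries. In ACD, SB415286 libraries 3, 4, 7 and 8 also had a higher median r with the controls than with their own group. The values were 0.990 against 0.989, 0.989 against 0.985, 0.989 against 0.988 and 0.985 against 0.984. ACD SB415286 library 5 had 0.982 with both groups, and every ACD control was nearer its own group. ACD fold changes thus rest on the labels as given as well.

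Promoter windows of 300 bases, from 250 before to 50 after the annotated start, were found in RefSeq for 45 of the 50 genes (47 windows, GRCm38.p6). Those of 3 Sprr2 genes with a high AD SB415286 level (Sprr2b, Sprr2d and Sprr2h) are shown. Those of Sprr2a1, whose values lay on the other side of 0, of Rptn and of Lor are shown as well. No link between these sequences and the AD values was tested. The windows shown were picked after AD values were seen. They lie on chromosome 3 at chr3:92316455-92316754, chr3:92338890-92339189, chr3:92385435-92385734, chr3:92215585-92215884 and chr3:93393449-93393748 on the plus strand and chr3:92083093-92083392 on the minus strand, and run 5′ to 3′ along the gene. Capitals mark 3 motifs: TGANTCA (AP-1), the octamer ATGCAAAT or its reverse complement, and TATAAA.
Sprr2b: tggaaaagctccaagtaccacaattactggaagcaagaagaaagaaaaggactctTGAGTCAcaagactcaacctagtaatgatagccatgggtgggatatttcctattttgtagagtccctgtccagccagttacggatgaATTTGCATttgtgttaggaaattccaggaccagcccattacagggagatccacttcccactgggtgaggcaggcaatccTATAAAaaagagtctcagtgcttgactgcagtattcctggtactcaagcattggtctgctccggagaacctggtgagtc
Sprr2d: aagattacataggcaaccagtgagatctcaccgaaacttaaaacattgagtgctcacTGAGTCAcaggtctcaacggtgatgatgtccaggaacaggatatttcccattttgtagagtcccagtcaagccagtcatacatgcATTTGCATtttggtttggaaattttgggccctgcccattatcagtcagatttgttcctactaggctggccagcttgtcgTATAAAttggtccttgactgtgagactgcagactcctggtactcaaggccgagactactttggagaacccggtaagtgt
Sprr2h: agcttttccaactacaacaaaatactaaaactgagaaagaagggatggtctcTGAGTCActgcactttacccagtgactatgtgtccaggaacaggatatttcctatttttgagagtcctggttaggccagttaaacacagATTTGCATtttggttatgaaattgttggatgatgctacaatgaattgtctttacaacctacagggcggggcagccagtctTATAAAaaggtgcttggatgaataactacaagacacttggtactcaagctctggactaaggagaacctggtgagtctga
Sprr2a1: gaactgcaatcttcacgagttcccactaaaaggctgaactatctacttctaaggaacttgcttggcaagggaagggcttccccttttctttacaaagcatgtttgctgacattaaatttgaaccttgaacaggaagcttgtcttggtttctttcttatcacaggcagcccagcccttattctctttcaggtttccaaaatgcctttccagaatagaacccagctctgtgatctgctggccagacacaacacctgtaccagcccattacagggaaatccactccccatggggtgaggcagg
Rptn: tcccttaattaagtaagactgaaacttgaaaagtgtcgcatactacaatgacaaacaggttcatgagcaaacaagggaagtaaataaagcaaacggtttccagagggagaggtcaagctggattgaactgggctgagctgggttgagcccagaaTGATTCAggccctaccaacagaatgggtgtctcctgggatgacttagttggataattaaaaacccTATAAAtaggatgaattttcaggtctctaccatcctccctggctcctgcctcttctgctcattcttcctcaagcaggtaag
Lor: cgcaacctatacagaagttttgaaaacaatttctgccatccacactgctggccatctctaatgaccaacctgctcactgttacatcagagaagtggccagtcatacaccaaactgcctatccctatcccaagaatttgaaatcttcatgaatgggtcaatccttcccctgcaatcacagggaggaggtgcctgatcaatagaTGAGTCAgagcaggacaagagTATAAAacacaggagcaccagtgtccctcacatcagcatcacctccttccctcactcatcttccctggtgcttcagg

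Sprr2b, Sprr2d and Sprr2h carry all 3 motifs in the same order, and so do Sprr2e, Sprr2f, Sprr2i and Sprr2k. In these 7 genes an AP-1 motif begins between positions -198 and -193 from the start, the octamer between -112 and -108 on the opposite strand, and TATAAA at -29. All 3 motifs together were found in 16 of the 32851 windows of the reference table (0.0487%), and 7 of the 16 are these Sprr2 genes. The window of Sprr2a1 holds none of the 3, which says only that these letters are not in this window. It is identical to that of Sprr2a2 (100.0%), 82.9% identical to that of Sprr2a3 and 46.7% identical to that of Sprr2d. The identity between Sprr2d and Lce1a1 was 50.1%. The end of the Sprr2a1 window, gggtgaggcagg, stands in Sprr2b shortly before TATAAA, so these windows do not start at matching places. The low identity and the missing motifs therefore do not show that the promoters differ. Sprr2d and Sprr2e are 88.7% identical.

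Over both strands, 7 motifs were searched and no 2 different motifs overlapped. TGANTCA was found in 15 of the 47 windows (31.9%, against 7.8% of all windows), TATAAA in 21 (44.7% against 13.6%) and ATGCAAAT in 7 (14.9% against 1.7%). TTCNNNGAA (STAT) was found in 5 (10.6% against 8.3%), TTGCNNAA (C/EBP) in 8 (17.0% against 10.8%), CTTTGA (TCF/LEF) in 8 (17.0% against 16.0%) and an interferon-response motif (IRF) in 1 (2.1% against 3.4%). By role, TGANTCA was in both Sprr1 windows, 7 of 10 Sprr2 windows and 4 of 5 windows of fused-type S100 genes, and in 0 of 13 Lce1 and 0 of 6 Lce3 windows. A match is a run of letters, not a measured binding site.

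How well reads tell the genes apart differs between families. Of all stretches of 50 bases in the GENCODE transcripts (vM21), 96.3% of Sprr2a1, 96.5% of Sprr2a2 and 61.1% of Sprr2a3 also occur in another gene, mostly in each other. The share was at most 14.1% in the other 7 Sprr2 genes, 0.0 to 27.1% in Lce1 genes, 12.1 to 49.3% in Lce3 genes and 35.0% in Dsg1a, which shares sequence with Dsg1b and Dsg1c. It was at most 0.5% in every other member. The split of reads among Sprr2a1, Sprr2a2 and Sprr2a3, and among Lce1 or Lce3 genes, is therefore an estimate, and the 3 Sprr2a genes are also given as a sum. The 14.1% is that of Sprr2b, which shares most with the 3 Sprr2a genes, so its count is an estimate as well.

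Levels were compared between genes in FPKM, which is per length. The highest mean over the 20 libraries in each family was that of Sprr2a3 (2463 FPKM), Sprr1a (1546), Lor (580.0), Cdsn (561), Lce1a1 (466), Rptn (312), Lce3c (236), Lce6a (167), Casp14 (79.9) and Sprr4 (31.9). Sprr3, a small proline-rich protein of oral and oesophageal epithelium, was at most 0.34 FPKM and was the only member left out of the tests by the filter on low counts. Sprr1a, a precursor induced in stressed epidermis, had a mean of 2147 ± 492 FPKM in AD SB415286 libraries and 1658 ± 322 in AD controls (SD, n = 5), and 1270 ± 177 in ACD SB415286 libraries and 1109 ± 288 in ACD controls. Cdsn, the glycoprotein corneodesmosin, had 1143 ± 395 FPKM in AD SB415286 libraries and 842 ± 150.4 in AD controls, and 124 ± 26.7 in ACD SB415286 libraries and 136 ± 23.6 in ACD controls. FPKM of Sprr2a1 and Sprr2a2 rest on a length of 3498 bases and that of Sprr2a3 on a shorter one, so the order among these near copies is uncertain.

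**Figure D1:**
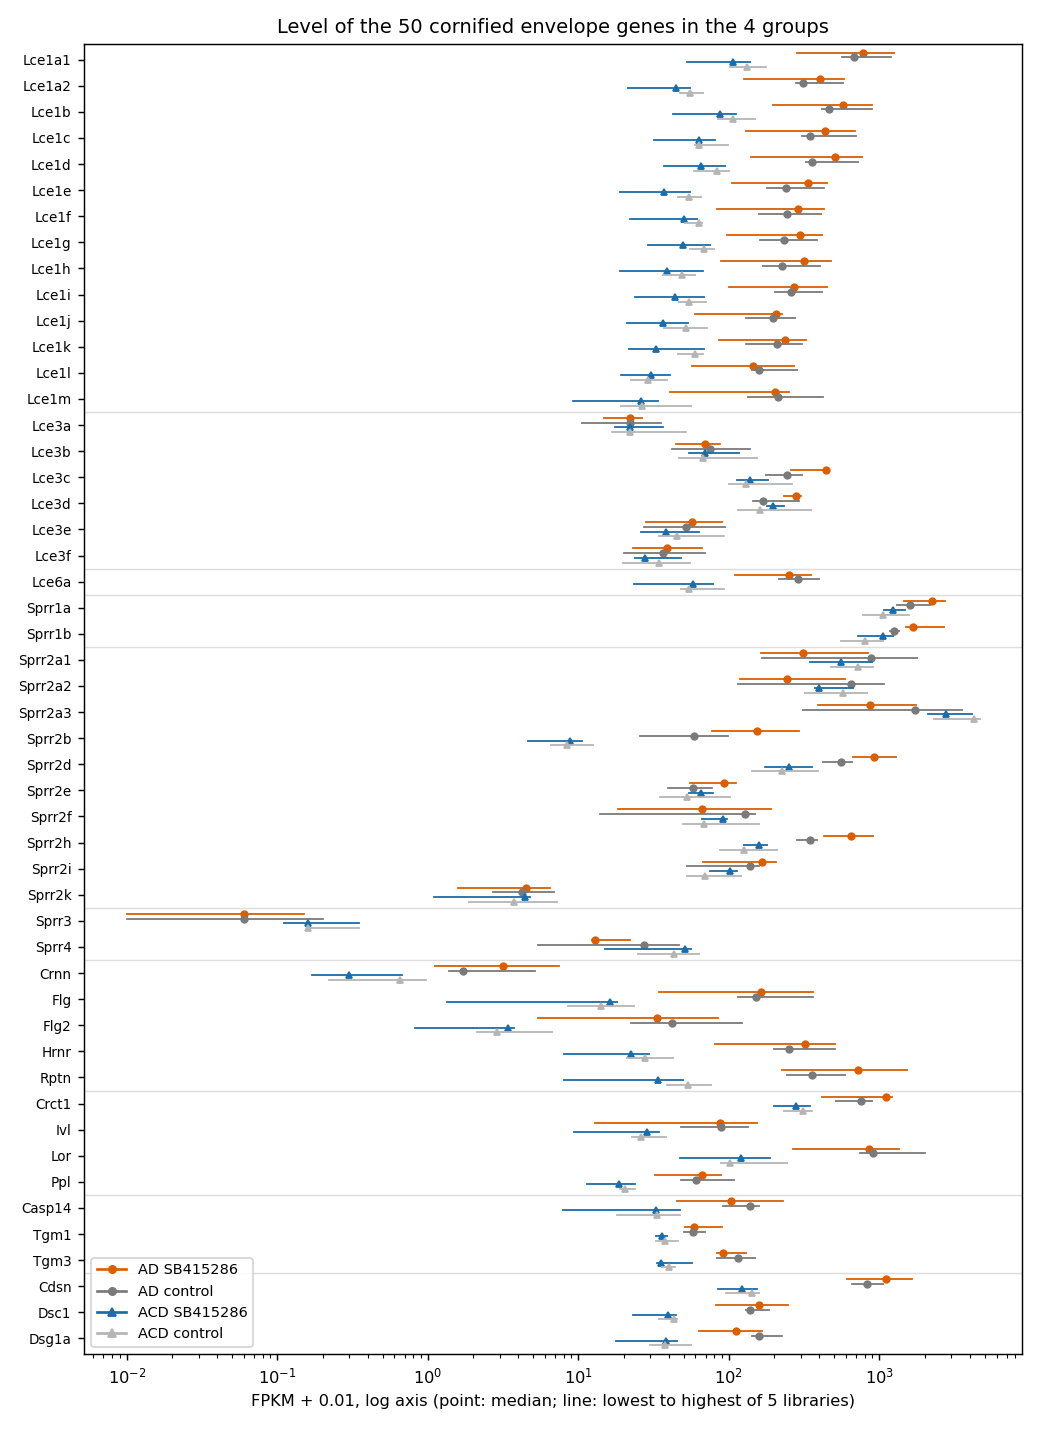
Level of each of the 50 genes in FPKM (log axis, 0.01 added) in the 4 groups. Points are medians and lines run from the lowest to the highest of 5 libraries. Medians of Lce1 genes, fused-type S100 genes and Lor lie further right in both AD groups than in the ACD groups, with Crnn low in all. The ranges of the 6 Lce3 genes overlap between the 2 control groups, and Sprr3 is near 0 throughout.

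The first comparison asked what SB415286 did to these genes in AD ears. None of the 49 tested members passed edgeR's quasi-likelihood test at an adjusted p under 0.05 (Benjamini-Hochberg over all genes), where 187 of all 15149 genes passed (1.23%, of which 0.587% were higher and 0.647% lower). At an unadjusted p under 0.05, 9 of 49 members were higher with SB415286 and 0 lower, while 20.1% of all genes were past that level, 9.99% higher and 10.1% lower. These were Sprr2b, Sprr2d, Sprr2e, Sprr2h, Sprr1a, Sprr1b, Lce3c, Lce3d and Rptn, and they are named here after their values were seen, as are the 3 Sprr2a genes, Lce1e, Dsg1a and Crct1. The median log2 fold change was 0.08 over the 49 members and 0.0012 over all genes, with 31 members above 0 and 18 below.

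Among the Sprr2 genes, which encode small proline-rich bridges of the envelope, values ran in both directions. Sprr2b had 85.3, 100.3, 201, 196 and 48.3 CPM in AD SB415286 libraries, against 37.2, 47.4, 32.6, 65.8 and 16.6 CPM in AD controls. Only SB415286 library 7 fell within the range of the controls. Its log2 fold change was 1.66 ± 0.44 (SE, n = 5 per group), with an adjusted p of 0.0848.

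Sprr2d had 421, 588, 827, 901 and 502 CPM in AD SB415286 libraries, against 341, 327, 402, 345 and 265 CPM in AD controls, and the groups did not overlap (0.95 ± 0.21, adjusted p = 0.058). Sprr2h had 304, 460.4, 670.4, 698 and 292 CPM in AD SB415286 libraries, against 232, 248, 192, 274 and 243 CPM in AD controls, again without overlap (1.03 ± 0.25, adjusted p = 0.0678). Sprr2e had 33.0, 53.8, 58.2, 64.7 and 64.0 CPM in AD SB415286 libraries, against 38.2, 29.3, 44.9, 35.0 and 23.3 CPM in AD controls (0.68 ± 0.21, adjusted p = 0.116). For Sprr2e, SB415286 library 2 was inside the control range and the other 4 libraries were above it. The 3 further genes with the same promoter motifs had log2 fold changes of 0.42 ± 0.33 (Sprr2i), 0.03 ± 0.37 (Sprr2k) and -0.32 ± 0.64 (Sprr2f), none past the threshold.

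The 3 Sprr2a genes lay on the other side of 0. Their summed level was 1401, 3158, 1732, 4040.4 and 6188 CPM in AD SB415286 libraries, against 12549, 5935, 8059.7, 6185 and 1225 CPM in AD controls. Library 7 had the highest sum of the SB415286 libraries, and control 6 had the lowest sum of all 10 libraries. The log2 fold change of the sum was -1.04 ± 0.56 (adjusted p = 0.32), and of the single genes -1.06 ± 0.58 (Sprr2a1), -1.06 ± 0.56 (Sprr2a2) and -0.96 ± 0.55 (Sprr2a3), none past the threshold. The Sprr2a sum over the sum of the other 7 Sprr2 genes was 1.57, 2.36, 0.918, 2.01 and 5.51 in AD SB415286 libraries, against 15.6, 7.78, 9.71, 6.96 and 2.09 in AD controls. Control 6 lay within the range of the SB415286 libraries, and the other 4 controls were above all 5 of them. The ratio was not tested, and a ratio of reads does not show which genes differ.

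**Figure D2:**
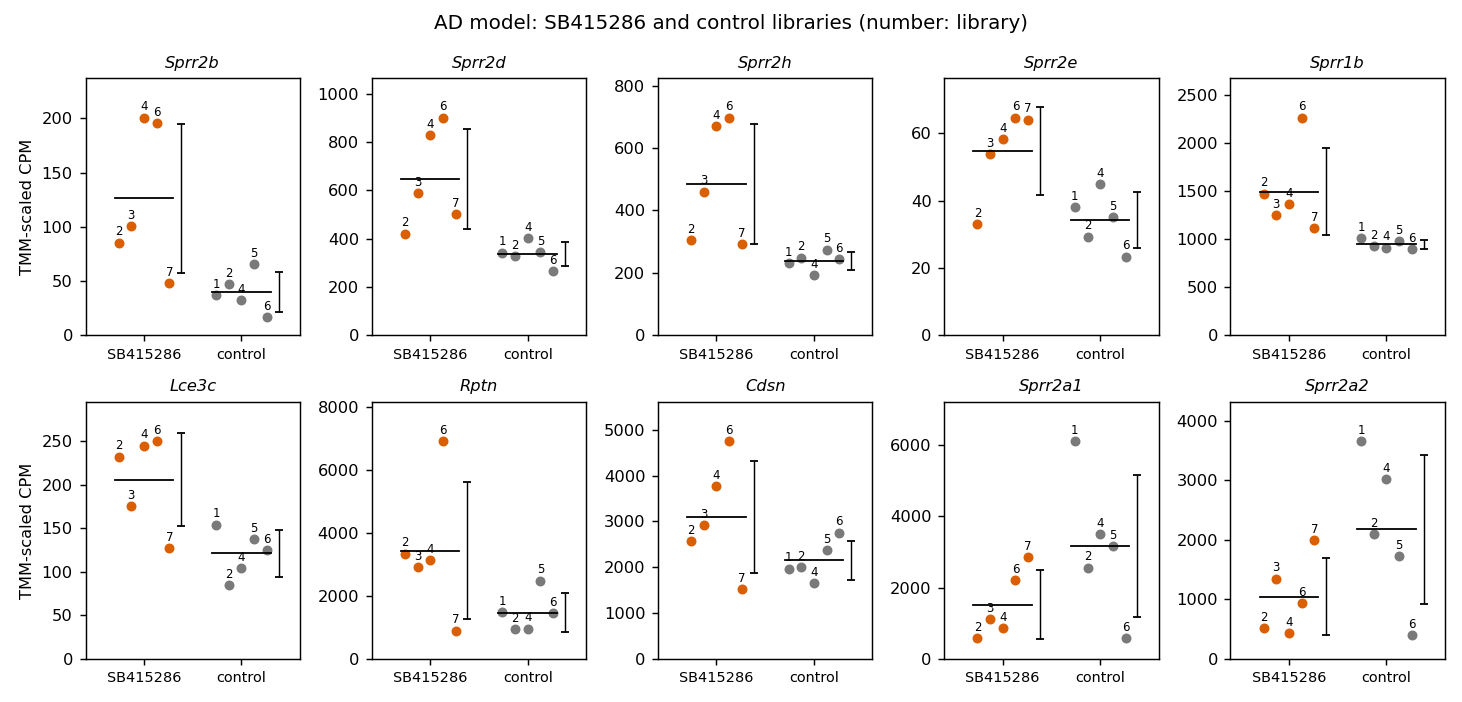
TMM-scaled CPM of 10 genes in the AD model, SB415286 left and control right, 1 point per library with its number. The horizontal line is the mean and the bar the SD over 5 libraries; SB415286 library 7 sits near or below the controls for Sprr2b, Rptn and Cdsn, and control 6 sits lowest among controls for Sprr2a1 and Sprr2a2.

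Sprr1b, a precursor of the same kind from the Sprr1 pair, had 1477, 1252, 1370.1, 2269 and 1119 CPM in AD SB415286 libraries, against 1012, 928, 912, 981 and 895 CPM in AD controls. All 5 SB415286 libraries were above all 5 controls (0.66 ± 0.18, adjusted p = 0.086). Sprr1a had a log2 fold change of 0.46 ± 0.20 (adjusted p = 0.236), and its groups overlapped. Sprr1b, Sprr2d and Sprr2h were the 3 members whose groups did not overlap, all higher with SB415286, where 4.65% of all genes did not overlap, 2.28% higher and 2.37% lower. Sprr4, expressed at 2.22 to 4.03 CPM in AD SB415286 libraries and 0.907 to 8.33 CPM in AD controls, gave -0.68 ± 0.44.

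Of the 6 Lce3 genes, Lce3c had 232, 175, 245, 249.7 and 127 CPM in AD SB415286 libraries, against 154, 84.8, 104, 137 and 125 CPM in AD controls (0.77 ± 0.21, adjusted p = 0.0921). SB415286 library 7 was within the control range and the other 4 were above it. Lce3d gave 0.56 ± 0.21 (adjusted p = 0.169), and the other 4 lay between -0.15 and 0.17 on the log2 scale. The 14 Lce1 genes, which encode envelope proteins of undisturbed epidermis, had log2 fold changes between -0.57 and 0.28 with a median of 0.08. Lce1a1 had 511, 481, 710.4, 908 and 181 CPM in AD SB415286 libraries, against 434, 342, 386, 799.9 and 672 CPM in AD controls (0.08 ± 0.39). Lce6a gave 0.16 ± 0.33. The 95% interval of the Lce1a1 difference ran from -0.77 to 0.94.

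Among the fused-type S100 genes, which encode filaggrin and its relatives, Rptn (repetin) had 3338, 2921, 3137, 6906 and 892 CPM in AD SB415286 libraries, against 1476, 947, 961, 2480.1 and 1442 CPM in AD controls. SB415286 library 7 was below every control and the other 4 were above every control. The log2 fold change was 1.23 ± 0.46 (adjusted p = 0.176). Flg, Flg2, Hrnr and Crnn lay between -0.48 and 0.53, each with an SE of at least 0.46. Flg, filaggrin itself, had 3355, 2259, 2177, 5400.1 and 449.6 CPM in AD SB415286 libraries, against 1780.1, 1451, 2009, 2872 and 4907 CPM in AD controls (0.07 ± 0.54).

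Lor, the main bulk protein of the envelope, gave -0.47 ± 0.43, with 1578, 1352, 1568, 2551 and 443 CPM in AD SB415286 libraries, against 1265, 1455, 1475, 2726 and 3472 CPM in AD controls. Crct1 gave 0.48 ± 0.29, and the scaffold genes Ivl (involucrin) and Ppl (periplakin) gave -0.04 ± 0.51 and -0.07 ± 0.31. The transglutaminases Tgm1 and Tgm3 gave 0.16 ± 0.19 and -0.08 ± 0.18, and Casp14, the caspase that takes part in filaggrin breakdown, gave -0.02 ± 0.38. Of the corneodesmosome genes, Cdsn had 2562, 2912, 3771, 4749 and 1527 CPM in AD SB415286 libraries, against 1969, 1994, 1653, 2366 and 2756 CPM in AD controls (0.53 ± 0.27, adjusted p = 0.298). Its partners in the same junction did not pass either: Dsc1 gave 0.17 ± 0.28 and Dsg1a -0.52 ± 0.28.

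Over the 50 genes, SB415286 library 7 lay lowest, with a median log2 deviation of -1.01 from the mean of the 10 libraries, while control 6 lay at 0.17 over all 50 and at -1.45 over the Sprr2 genes. SB415286 library 7 was the lowest of 10 libraries for 29 of the 50 genes and SB415286 library 6 the highest for 28, while control 6 was the lowest for 12 and the highest for 4. Without both libraries, a choice made after seeing the data, 8 members passed as higher (Sprr2b, Sprr2d, Sprr2h, Sprr1b, Lce3c, Rptn, Crct1 and Cdsn) and the 3 Sprr2a genes as lower, in a fit where 25.7% of all genes passed, 11.8% as higher and 13.8% as lower. Sprr2b then gave 1.66 ± 0.33 (adjusted p = 0.00902), Rptn 1.46 ± 0.39 (adjusted p = 0.0246) and Sprr2a2 -1.71 ± 0.39 (adjusted p = 0.0148). The libraries left out were those lying toward the other group, which by itself widens the gap between the groups. The adjusted p of this fit therefore cannot be read as those of a planned test. Without SB415286 library 7 alone 6 of 49 members passed (Sprr2b, Sprr2d, Sprr2h, Sprr1b, Lce3c and Rptn), where 7.37% of all genes passed. Without control 6 alone 1 passed (Sprr2d), where 9.3% of all genes passed. With all 10 libraries DESeq2 called 6 and limma voom with quality weights 12, where these called 8.1% and 23.7% of all genes. The DESeq2 calls were all higher, while Sprr2a1 (-1.51) and Sprr2a3 (-1.25) were among the voom calls as lower.

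**Figure D3:**
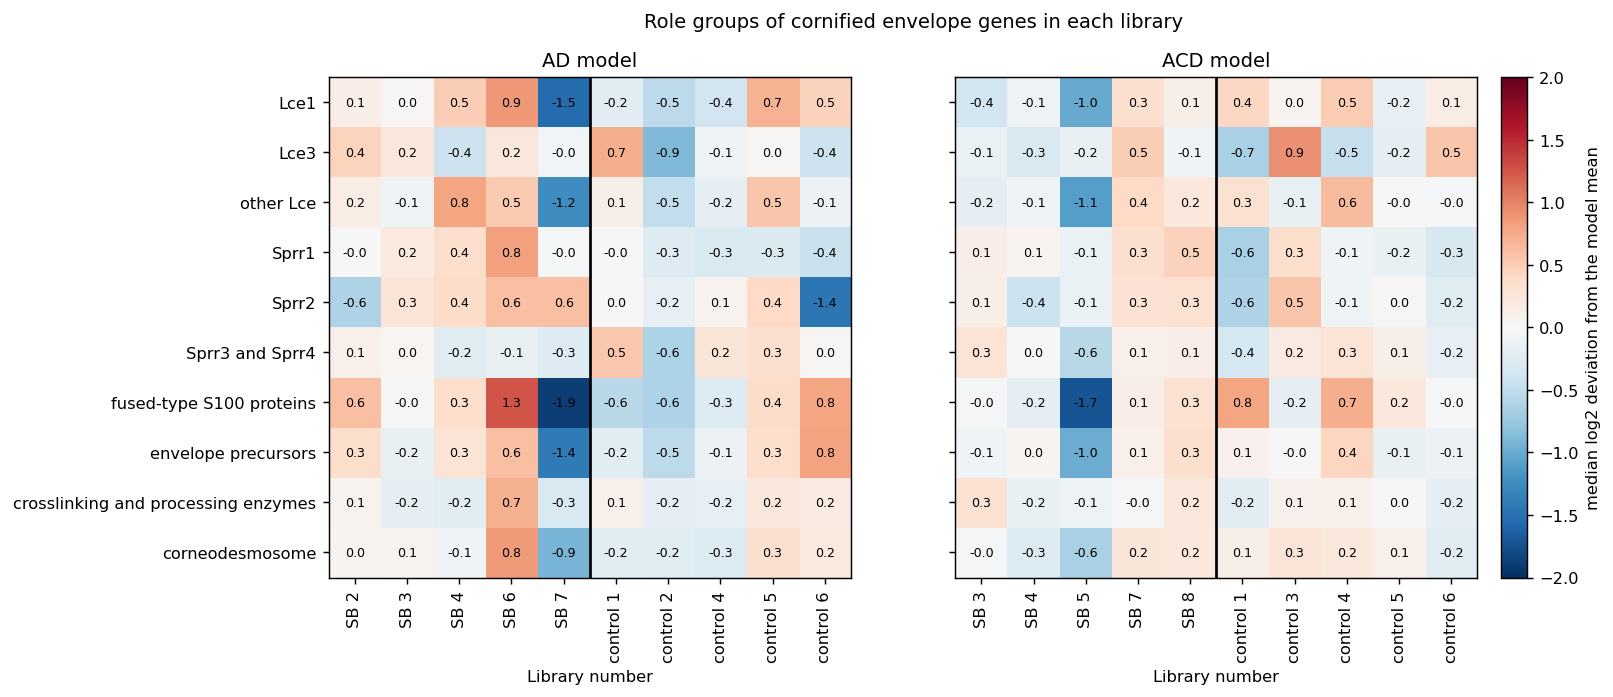
Median log2 deviation of each family's genes from their mean over the 10 libraries of the model, SB415286 libraries left of the black line and controls right. Blue is lower and red higher; AD SB415286 library 7 is blue for Lce1, fused-type S100 and precursor genes but not for Sprr2, AD control 6 is blue for Sprr2, and ACD SB415286 library 5 is blue for Lce1, fused-type S100 and precursor genes.

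Markers of other structures were read beside these genes. The summed level of 7 hair inner root sheath genes, none at 0 throughout, was 897, 1119, 1586, 2700.5 and 399 CPM in AD SB415286 libraries, against 367, 540.1, 211, 701 and 317 CPM in AD controls, of which Tchh (trichohyalin, itself a fused-type S100 gene) made up most. Of these genes 6 could be tested, and all 6 were above 0 with none past the threshold. Among the SB415286 libraries, library 6 was highest and library 7 lowest for this sum, as for Rptn and Cdsn but also for Flg, Lor and Lce1a1. The part of hair structures in those values was not tested. Tchh gave 1.65 ± 0.49 (adjusted p = 0.108).

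Immune, muscle and connective tissue markers were read in the same way, and none passed in AD ears. All 3 T cell markers were below 0 (median -1.12, 2 of them at an unadjusted p under 0.05), and their sum was 3.65, 5.54, 4.80, 5.12 and 15.1 CPM in AD SB415286 libraries, against 25.4, 12.6, 17.0, 14.0 and 8.35 CPM in AD controls. The 3 neutrophil markers summed to 27.3, 37.3, 46.6, 38.9 and 209 CPM in AD SB415286 libraries, against 105, 130.1, 76.2, 63.4 and 40.4 CPM in AD controls. For both lists SB415286 library 7 was the highest of its group and control 6 the lowest of its group. Of the other lists, all 4 skeletal muscle markers (median -1.05, summed level 36.5 to 989 CPM in AD SB415286 libraries and 640.2 to 1339 CPM in AD controls) and 3 of 4 fibroblast markers (median -0.68, 2332 to 4539 CPM and 2798 to 6947 CPM) were below 0. Of the 3 cartilage markers tested, 2 were below 0 at an unadjusted p under 0.05 (Col2a1 -2.16, adjusted p = 0.0887), with sums of 296 to 439 CPM in AD SB415286 libraries and 330.4 to 407 CPM in AD controls. The sebaceous gland list summed to 1251 to 1807 CPM in AD SB415286 libraries and 1014 to 2674 CPM in AD controls, with 4 of 5 markers below 0 (median -0.37). The part of these tissues in the values of the cornified envelope genes was not tested.

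Other genes of cornification were taken from lists that hold no member. In AD ears, 1 of 10 processing enzymes passed: Ctsl, a lysosomal protease, rose to 1484, 1542, 1945, 1489 and 1008 CPM in AD SB415286 libraries, against 714, 701, 698, 848 and 992 CPM in AD controls (0.92 ± 0.18, adjusted p = 0.0461). Of 16 transcription factors of differentiation 1 passed: Maf, which promotes keratinocyte differentiation, fell to 106, 129, 108, 108 and 123 CPM in AD SB415286 libraries, against 167, 159, 161, 164 and 132 CPM in AD controls (-0.45 ± 0.09, adjusted p = 0.0487). Both calls held in only 2 of 10 fits with 1 library left out, those without SB415286 library 7 or control 6, and adjusted p reached 0.124 for Ctsl (log2 fold change 0.81 to 1.03) and 0.135 for Maf (-0.50 to -0.42). None of 9 other envelope proteins, 9 desmosome genes, 6 suprabasal keratins, 4 wound keratins or 7 basal keratinocyte markers passed by edgeR, and 1 of each was past an unadjusted p of 0.05. These were Prr9 (1.04 ± 0.41), Dsc3 (-0.45 ± 0.16), Krt2 (-1.09 ± 0.44), Krt17 (0.53 ± 0.19) and Krt5 (-0.49 ± 0.16).

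The same comparison in ACD ears gave 0 of 49 members past the threshold, where 4 of all 15150 genes passed (0.0264%, of which 0.0198% were higher and 0.0066% lower). At an unadjusted p under 0.05, 1 member was higher (Sprr1b) and 2 were lower (Lce1e and Rptn), while 13.8% of all genes were past that level, 7.41% higher and 6.4% lower. DESeq2 and limma voom called 0 members as well. The groups overlapped for every member, while 3.31% of all genes did not, 1.72% being higher and 1.59% lower. Of the 49 members 39 were below 0, with a median of -0.23 on the log2 scale, while the median of all genes was -0.01.

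Sprr1b had 788, 747, 586, 857 and 973 CPM in ACD SB415286 libraries, against 418, 806, 643, 607 and 481 CPM in ACD controls (0.42 ± 0.18, adjusted p = 0.335). Rptn had 134, 127, 34.7, 203 and 153 CPM in ACD SB415286 libraries, against 201, 313, 220.4, 245 and 157 CPM in ACD controls (-0.80 ± 0.36, adjusted p = 0.355). Lce1e had 21.6, 27.3, 13.2, 36.8 and 25.3 CPM in ACD SB415286 libraries, against 37.2, 35.6, 43.6, 29.8 and 34.5 CPM in ACD controls (-0.54 ± 0.21, adjusted p = 0.308). For Rptn and Lce1e, SB415286 library 5 was the lowest of all 10 libraries.

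That library was the lowest for 30 of the 50 genes. It held 19.2 CPM of Flg, against 190.0 to 252 CPM in the other ACD SB415286 libraries and 116 to 323 CPM in ACD controls. It also had the highest summed level of 4 lung epithelium markers, 43.5 CPM against 10.7 to 17.1 CPM in the other ACD SB415286 libraries and 0.546 to 1.12 CPM in ACD controls, and its part in these values was not tested. All 3 of the lung markers that could be tested rose with SB415286 in ACD ears (Sftpb by 3.21 ± 0.25 on the log2 scale, adjusted p = 0.000577). No member passed with that library left out. Of the 14 Lce1 genes 13 were below 0, between -0.54 and 0.02, and Lce1a1 gave -0.41 ± 0.22 (95% interval -0.90 to 0.09). The 10 Sprr2 genes lay between -0.30 and 0.32, and the summed Sprr2a level gave -0.25 ± 0.23. Lce3c gave -0.16 ± 0.25, Lce6a -0.26 ± 0.25, Sprr1a 0.22 ± 0.17, Sprr4 0.09 ± 0.32, Lor -0.24 ± 0.38, Casp14 -0.09 ± 0.38 and Cdsn -0.11 ± 0.16.

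**Figure D4:**
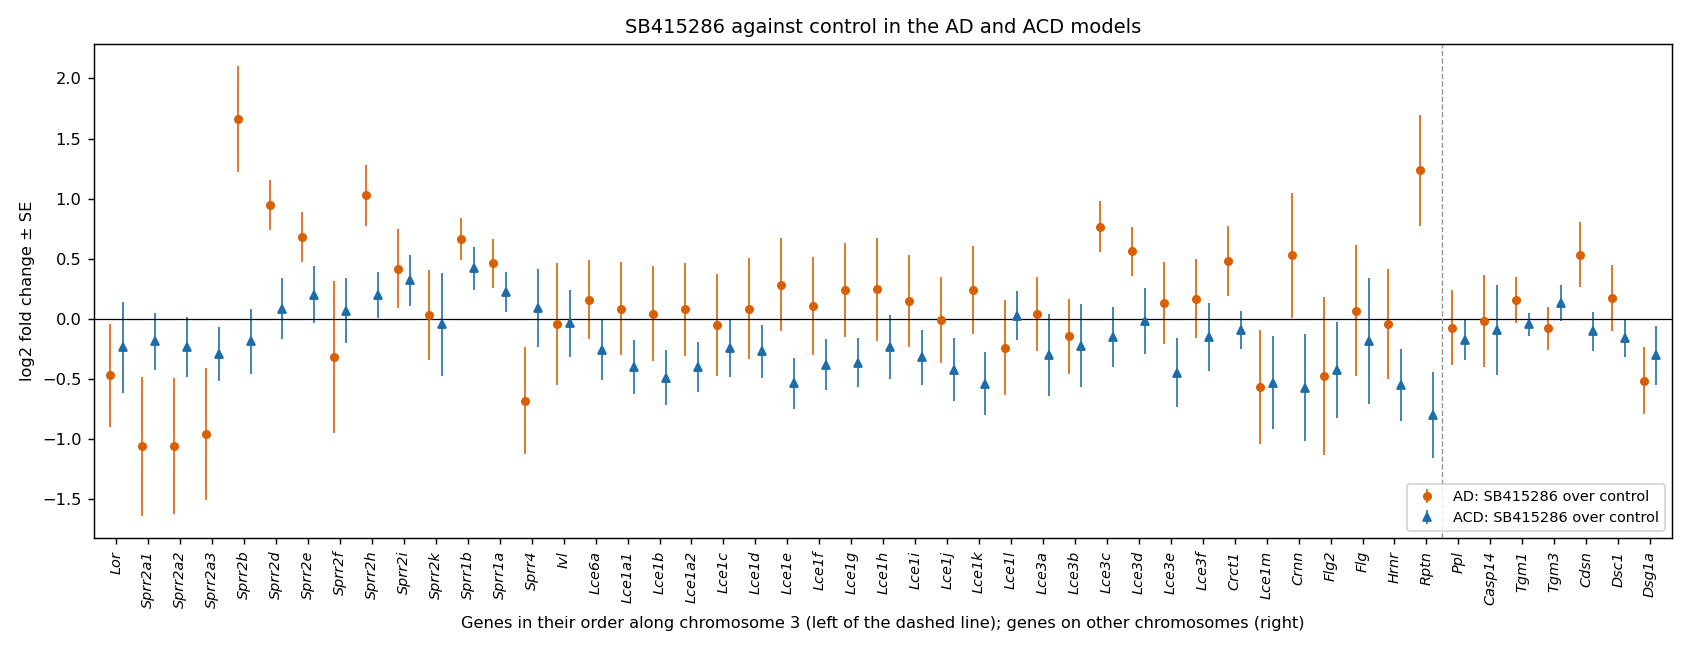
Log2 fold change of SB415286 over control (± SE, 5 libraries per group) for the 49 tested genes, in their order along chromosome 3 and then on other chromosomes, circles for AD and triangles for ACD. In AD the Sprr2a genes lie near -1 and their neighbours Sprr2b, Sprr2d and Sprr2h near 1 or above, while in ACD the Sprr2 genes lie between -0.30 and 0.32.

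The effects in both models were compared directly as ACD minus AD, with dose and model differing together. None of 49 members passed, where 8 of all 15700 genes passed (0.051%, of which 0.0318% were higher and 0.0191% lower). At an unadjusted p under 0.05, 5 members were lower and 0 higher, while 12.6% of all genes were past that level, 6.51% lower and 6.07% higher. These were Sprr2b (-1.84 ± 0.56, adjusted p = 0.2), Rptn (-2.03 ± 0.62, adjusted p = 0.204), Lce3c (-0.92 ± 0.35, adjusted p = 0.288), Sprr2h (-0.82 ± 0.33, adjusted p = 0.314) and Sprr2d (-0.86 ± 0.35, adjusted p = 0.324). Without AD SB415286 library 7, Sprr2b and Rptn passed, where 1.97% of all genes passed. Without that library and AD control 6 together, 5 members passed (Rptn, Sprr2b, Cdsn and Crct1 as lower and Sprr2a2 as higher), where 13.4% of all genes passed, 6.33% as lower and 7.1% as higher. These calls too come from leaving out libraries that lay toward the other group, and cannot be read as planned tests.

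The last comparison set ACD controls against AD controls. It was made on raw expected counts from separately deposited tables, so model, table and anything else that differed between the experiments cannot be told apart. Of 49 members 35 were lower in ACD controls and 1 was higher, while 61.6% of all 15700 genes passed, 32% as lower and 29.5% as higher. The groups did not overlap for 34 members, all lower, while 47.3% of all genes did not overlap, 24.2% being lower and 23.2% higher. The median log2 fold change was -1.80 over the members and -0.04 over all genes. By edgeR's test all 14 Lce1 genes, Lce6a, both Sprr1 genes, all 5 fused-type S100 genes, all 4 precursors, all 3 enzymes and all 3 corneodesmosome genes were lower, while none of the 6 Lce3 genes passed. At an unadjusted p under 0.05 the same numbers of members were past, 35 lower and 1 higher with 0 among Lce3 genes, where 65.6% of all genes were past that level, 31.3% higher and 34.3% lower.

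Among the members, Flg2, Flg and Hrnr, all of the filaggrin family, were the furthest below 0. On the scaling of all 20 libraries, Flg2 had 50.6, 16.3, 44.5, 21.7 and 21.3 CPM in ACD controls, against 164, 291, 260.1, 605 and 909 CPM in AD controls (-3.85 ± 0.65, adjusted p = 6.4e-05). Flg had 291, 138, 327, 190.5 and 116 CPM in ACD controls, against 1744, 1424, 1968, 2837 and 4805 CPM in AD controls (-3.59 ± 0.64, adjusted p = 0.000103). Hrnr, hornerin, had 451, 227, 424, 255 and 292 CPM in ACD controls, against 2032, 2421, 2471, 5464 and 4845 CPM in AD controls (-3.39 ± 0.45, adjusted p = 6.2e-06). In each of the 3, the highest ACD control was below the lowest AD control. Rptn gave -2.64 ± 0.46 and Crnn -2.17 ± 0.53.

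Lor had 419, 154, 378, 156 and 174 CPM in ACD controls, against 1239, 1427, 1445, 2692 and 3400.3 CPM in AD controls (-2.99 ± 0.47, adjusted p = 2.9e-05). Among Lce1 genes, Lce1m had 46.4, 17.5, 46.5, 15.9 and 21.9 CPM in ACD controls, against 105, 153, 167, 317 and 339 CPM in AD controls (-2.87 ± 0.50, adjusted p = 8.3e-05). Lce1a2 had 44.8, 32.8, 41.9, 31.4 and 36.4 CPM in ACD controls, against 197, 168, 189, 382 and 337 CPM in AD controls (-2.76 ± 0.36, adjusted p = 4.7e-06). The 14 Lce1 genes ran from -2.87 to -1.77, and none of them overlapped between the groups.

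Lce6a gave -2.40 ± 0.33, Cdsn -2.57 ± 0.25, Casp14 -1.96 ± 0.42, Tgm3 -1.45 ± 0.18 and Tgm1 -0.58 ± 0.15, all lower in ACD controls. Sprr1b and Sprr1a were lower by smaller amounts, -0.63 ± 0.19 and -0.51 ± 0.19. Lce3c had 51.0, 136, 66.3, 66.4 and 115 CPM in ACD controls, against 151, 83.3, 102, 136 and 122 CPM in AD controls (-0.45 ± 0.25, adjusted p = 0.118). The Lce3 genes lay between -0.45 and 0.53 and overlapped in all 6 cases. Summed Lce1 reads over summed Lce3 reads were 4.30, 1.12, 3.82, 2.00 and 1.43 in ACD controls, against 5.55, 10.1, 8.42, 13.9 and 15.5 in AD controls, without overlap.

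The Sprr2 family was split. Sprr2b had 4.44, 8.18, 5.61, 7.14 and 4.27 CPM in ACD controls, against 36.4, 46.5, 31.9, 65.0 and 16.2 CPM in AD controls (-2.72 ± 0.41, adjusted p = 2.0e-05), and Sprr2d and Sprr2h were lower, at -1.13 ± 0.25 and -1.27 ± 0.24. Sprr2a3 had 3717, 3713, 3465, 3244 and 1831 CPM in ACD controls, against 2723, 1252, 1502, 1288 and 244 CPM in AD controls (1.19 ± 0.45, adjusted p = 0.028). Sprr2b shares sequence with the Sprr2a genes, whose sum was 4609 to 8901 CPM in ACD controls. The part of shared reads in the Sprr2b level was not tested. The summed Sprr2a level gave 0.21 ± 0.44 (adjusted p = 0.7), so the call of Sprr2a3 was lost once its reads were added to those of its near copies. Its call was also lost when AD control 2, AD control 5, ACD control 1 or ACD control 3 was left out (adjusted p of 0.0515 to 0.0535), and that of Sprr1a when AD control 1 or ACD control 1, 5 or 6 was left out (adjusted p of 0.0534 to 0.0833). The other 6 Sprr2 genes and Sprr4 (0.76 ± 0.41) did not pass.

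**Figure D5:**
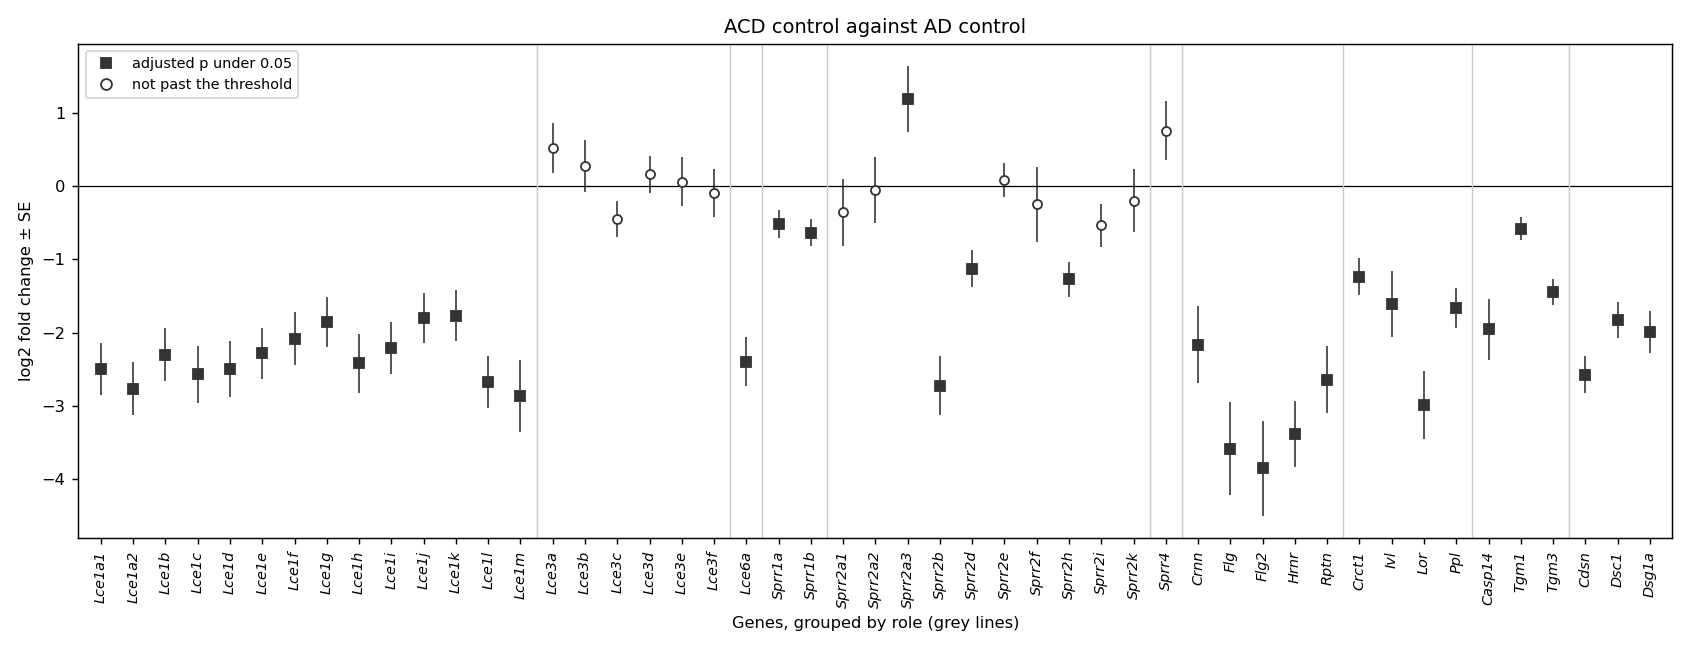
Log2 fold change of ACD control over AD control (± SE, 5 libraries per group) for the 49 tested genes, grouped by role. Filled squares passed an adjusted p under 0.05 and open circles did not; the fused-type S100 genes reach -3.85, the 14 Lce1 genes lie between -2.87 and -1.77 and the 6 Lce3 genes lie around 0.

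Genes outside the set gave the context of this difference. The basal keratins Krt5 (0.14 ± 0.17) and Krt14 (-0.15 ± 0.18) did not pass, and 3 of 7 basal keratinocyte markers were lower in ACD controls (Trp63 -0.89 ± 0.17, Itga6 -0.48 ± 0.12 and Col17a1 -0.66 ± 0.18). All 6 suprabasal keratins were lower, with Krt77 at -3.47 ± 0.61, Krt78 at -3.27 ± 0.53 and Krt80 at -1.60 ± 0.22, and 0 of 4 wound keratins passed (Krt6a -0.37 ± 0.19). Of 9 other envelope proteins 6 were lower (Kprp -2.68 ± 0.36, Evpl -1.08 ± 0.17, Sbsn -1.42 ± 0.28), as were 7 of 10 processing enzymes (Padi3 -2.71 ± 0.38, Prss8 -1.77 ± 0.26, Blmh -1.43 ± 0.19) and 8 of 9 desmosome genes (Dsg1b -1.55 ± 0.16, Pkp1 -1.49 ± 0.18, Jup -1.15 ± 0.16). Of 16 transcription factors of differentiation 13 were lower (Grhl1 -1.53 ± 0.21, Zfp750 -1.39 ± 0.17) and 3 higher (among them Cebpb, 1.32 ± 0.16).

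Markers of other cells and structures differed too. All 3 neutrophil markers were higher in ACD controls (Ly6g 6.51 ± 0.54), their summed level, scaled within each model, being 534, 674, 488, 698 and 930.2 CPM in ACD controls, against 105, 130.1, 76.2, 63.4 and 40.4 CPM in AD controls. Of 6 hair inner root sheath genes tested, 2 passed as lower, among them Tchh (-5.27 ± 0.48). That list summed to 9.24 to 19.4 CPM in ACD controls against 211 to 701 CPM in AD controls. Also higher were 2 of 4 fibroblast and 2 of 3 T cell markers. Lower were 1 of 4 skeletal muscle, 1 of 3 cartilage and 2 of 3 lung epithelium markers and the 1 mucosal marker tested. Of 5 sebaceous gland markers, 1 was higher and 2 were lower. The part of cell content in the values of the cornified envelope genes was not tested.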

How the data were processed

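Gene expression was measured by RNA sequencing of oligo(dT)-selected RNA from 20 mouse ear libraries. The authors deposited 1 table per model with expected counts per gene, FPKM and TPM values. The submitters' processing notes list Bowtie2 2.2.5, RSEM 1.2.8, HISAT and HISAT2, and the builds GRCm38.p6 and GRCh38.p13, with no role given. The deposited TPM values were not used. After rounding to integers, the deposited expected counts went into edgeR 4.0.16 under R 4.3.3 (TMM, filterByExpr by group, robust quasi-likelihood test, 2-sided, Benjamini-Hochberg over all genes, threshold 0.05). Each model was fitted on its 10 libraries, and the difference between models and the comparison of controls on all 20. Alternatives used DESeq2 1.42.0, limma 3.58.1 and left-out libraries. The ACD table's 6 columns of means over parts of groups were not used. Near copies can exchange reads in RSEM's estimates, and whether counting used strand is not given in the sources used here. Scripts were tested on simulated data.

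The members and all lists were chosen with earlier results of these data known. By rule, the text names every member past the threshold (above 12, the 6 largest rises and 6 largest falls with at least 1 CPM), the most abundant member of each family by FPKM, and from other lists up to 3 genes past the threshold or else the 1 with the smallest p. Other names were chosen after their values were seen.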

Additional observations from a re-analysis of the deposited data

Results flagged for a closer look

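In 116 groups of 5 libraries (29 genes in 4 groups), 6 held a library far from the other 4 by Dixon's test. Chance gives about 1 in 20 where groups are independent. These genes share the same libraries, so this count cannot be judged against that rate. ACD SB415286 library 5 was low for Flg (19.2 CPM, others 190.0 to 252), Flg2 (6.48 CPM, others 22.9 to 29.3), Ivl (18.4 CPM, others 53.6 to 63.3) and Sprr4 (2.86 CPM, others 8.34 to 9.86). ACD control 6 was low for Sprr2a3 (1824 CPM, others 3209 to 3671). AD SB415286 library 6 was high for Tgm1 (269 CPM, others 133 to 167).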

How the results depend on the processing

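In ACD ears 0 members passed under every alternative run, and between controls 34 to 38 passed. In AD ears the count was 0 with all 10 libraries and became 6 with DESeq2 (8.1% of all genes passed), 12 with limma voom and quality weights (23.7%), 4 in 1 fit of all 20 libraries (9.31%) and 11 without SB415286 library 7 and control 6 together (25.7%, chosen after seeing the data, as was the sum of the Sprr2a genes). Leaving out 1 library gave 0 to 6 members, where 0 to 1423 of all genes passed. For ACD minus AD the count was 0 and became 1 with DESeq2 (Sprr2b, 1.13%), 2 with limma voom and quality weights (7.56%), 5 without both AD libraries (13.4%), and 0 to 2 without 1 library (1 to 312 of all genes). The cause of these changes was not tested. Fits with left-out libraries are smaller, and AD SB415286 library 7 and AD control 6 were those lying toward the other group over all genes.

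Same-numbered AD libraries had correlations of -0.245, -0.261 and 0.288, the last with control 6. Same-numbered ACD libraries had -0.194, -0.031 and 0.216. These few values do not settle whether library numbers pair the libraries. With the replicate number as a block, added after seeing the data for the comparison of controls, 0 members passed in AD and in ACD, 36 passed between controls, and 1 (Lce1k, the only one of all genes) passed for ACD minus AD. Only numbers 2, 4 and 6 in AD and 3, 4 and 5 in ACD occur in both groups. The other libraries stand alone in their block and add nothing to the blocked SB415286 effects, which thus rest on few pairs, AD control 6 among them. The block turned the sign of Sprr4 (0.0624) and Casp14 (0.42) in AD, of Sprr1a (-0.0658) and Sprr4 (-0.51) in ACD, and of Sprr4 (-0.57) and Lor (-0.28) for ACD minus AD.

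On the log2(FPKM + 1) and log2(FPKM + 0.1) scales, Lce1a1 (-0.0913 and -0.0916) and Lce6a (-0.37 and -0.38) changed sign in AD. Casp14 was 0.00772 for ACD minus AD with limma voom. Without both AD libraries Lor (0.0162) and Casp14 (0.26) changed sign in AD, and Lor (-0.26) for ACD minus AD. With 1 library left out, signs changed within these ranges: in AD, Lce1a1 -0.16 to 0.31, Lce6a -0.0471 to 0.37 and Casp14 -0.41 to 0.20. In ACD they were Lce3c -0.30 to 0.0620, Sprr4 -0.0572 to 0.30, Lor -0.46 to 0.00474 and Casp14 -0.30 to 0.15. For ACD minus AD they were Lor -0.0256 to 0.51 and Casp14 -0.29 to 0.31. None of these values had passed the threshold. Depth was even across libraries, and only Sprr3 was too low to test.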
